A study of Mus musculus with 8 samples.

Results

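The genes described are the appetite peptides Npy, Cartpt, Hcrt, Gal and Galp, 5 of the 13840 genes that a probe of the array names alone. They were chosen by symbol, and each had exactly 1 probe. RNA came from the hypothalamus of genetically alike C57BL/6J mice, males by the study's account, sorted by weight gain into high gainers and low gainers. The mice of both groups ate the same diets, a high-fat diet for 6 weeks, a low-fat diet for 2 weeks and the high-fat diet for 6 weeks more. In the study's account of this schedule, the low-fat diet was given in restricted amount, below what each mouse had eaten before. The labels give no age, and by the methods of the study the first high-fat period began in young adulthood with mice housed singly. Hypothalamus RNA of 20 high gainers was combined into 1 pool and that of 20 low gainers into another, and each pool was measured on 4 arrays. Arrays of 1 pool are technical replicates, so the p-values set 2 pools against the spread between arrays and hold no information on the spread between mice. Intensities are given as deposited, on a linear scale, and for the fit their log2 values were quantile normalized over the arrays compared.

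Appetite is set in the hypothalamus by neurons that speak through short peptides cut from longer precursors. In the arcuate nucleus, neurons that make neuropeptide Y (Npy) drive feeding, while neighbouring neurons make the CART peptide (Cartpt), which curbs it. Neurons of the lateral hypothalamus make the orexins, cut from the Hcrt precursor, which join wakefulness to food seeking. Galanin (Gal) is made in several hypothalamic nuclei and stimulates feeding, and the related galanin-like peptide (Galp) is made by a small population of arcuate and median eminence neurons.

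In RefSeq annotation of build GRCm38.p6, Npy spans chr6:49822710-49829507, Cartpt chr13:99898483-99910179, Hcrt chr11:100761693-100762931, Gal chr19:3409915-3414544 and Galp chr7:6197090-6216137. The genome build of the array and the positions of its probes are not given in the sources used here. The 130 bases before the annotated start are printed for 3 genes whose probes varied together over the arrays, Npy, Cartpt and Hcrt, and for Gal, which did not follow them. They lie at chr6:49822580-49822709 (plus strand), chr13:99900684-99900813, chr11:100762932-100763061 and chr19:3414545-3414674 (minus strand). The Cartpt window belongs to 1 of the annotated starts inside its span. Capitals mark matches on either strand to ATAAA or TATAA (letters of a TATA box) or to TGACGTCA (a cAMP response element), within which TGACG also matches.
Npy: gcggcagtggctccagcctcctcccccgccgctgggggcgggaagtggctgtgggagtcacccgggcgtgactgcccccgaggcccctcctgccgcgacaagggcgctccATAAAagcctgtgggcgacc
Cartpt: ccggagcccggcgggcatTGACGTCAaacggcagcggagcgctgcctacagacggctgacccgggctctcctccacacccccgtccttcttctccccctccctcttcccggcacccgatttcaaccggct
Hcrt: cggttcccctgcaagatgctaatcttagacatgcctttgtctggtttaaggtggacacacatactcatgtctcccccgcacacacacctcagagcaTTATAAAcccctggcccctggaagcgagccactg
Gal: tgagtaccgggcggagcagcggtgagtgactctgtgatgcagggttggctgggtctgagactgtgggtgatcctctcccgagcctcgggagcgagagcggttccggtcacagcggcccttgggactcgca

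In Npy the ATAAA match began 20 bases before the start, and in Hcrt the overlapping TATAA and ATAAA matches began 34 bases before it. In Cartpt the TGACGTCA match began 112 bases before the start. Of 32851 windows of 250 bases before a RefSeq start, 22.8% held TATAA, 37.3% ATAAA, 17.8% TGACG and 1.55% TGACGTCA. None of these motifs was matched in the 250 bases before the Gal start. CACGTG, an E-box present in 6.02% of windows, was in none of the 5 windows. No motif was shared by all of Npy, Cartpt and Hcrt, and a match describes letters only.

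Low gainer array 2 stood apart from the rest, so it is given separately and the comparison was made on 7 arrays. Its log2 intensities had an r of 0.228 to 0.253 with each of the other arrays over probes, whereas each pair among the other 7 arrays had an r of at least 0.945. Among 11169 probes measured on each of the other 7, 51.9% were empty on it, and of the 9503 probes with a value on none of the 7, 38.4% had one there. The number of probes with a value per array ran from 13657 to 16873 on the 8 arrays, with low gainer arrays 3 and 2 the lowest. Probes are not independent replicates, and these values describe arrays. Precision is limited by how few arrays there were.

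Of the 5 peptides, 4 had full data. Npy, Cartpt, Hcrt and Gal, had a value on all 7 arrays, as had 33.8% of all 33012 probes and 43.9% of probes that name 1 gene. Galp had a value on 0 of 4 high gainer arrays and 0 of the 3 low gainer arrays compared. The 4 measured peptides had lower mean levels in high gainers, and none was called different. By limma at an adjusted p under 0.05, 0 of 4 were called lower, against 0% of the 11169 probes tested, and 0 of 4 were called higher, against 0.0269%. Among the 4, 2 had a negative difference with an unadjusted p under 0.05 by limma (Npy and Hcrt), a rule that 3.41% of all probes met. Npy and Hcrt varied together over the 7 arrays (r 0.93), so they are not 2 independent results. At the study's threshold of p under 0.01 with a 1.5-fold difference, again by limma, 0 of 4 passed in either direction, and 0.573% of probes passed as lower. In bulk RNA, fewer cells of a type and less RNA per cell cannot be told apart.

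Npy, the feeding-stimulating peptide of arcuate neurons, had intensities of 1.504, 1.96, 1.46 and 1.38 on high gainer arrays 1 to 4, against 1.62, 3.32 and 2.42 on low gainer arrays 1, 3 and 4. Low gainer arrays 3 and 4 lay above every high gainer array, but low gainer array 1 lay below high gainer array 2, so the groups overlapped. The mean was 1.57 ± 0.262 (SD, n = 4 arrays) in high gainers and 2.45 ± 0.848 (SD, n = 3 arrays) in low gainers. The level in high gainers was 0.671-fold that in low gainers, with a 95% interval from 0.471 to 0.955 and an adjusted p of 0.752 by limma. The highest of the 3 low gainer arrays was 2.05-fold the lowest, although all were made from the same RNA pool. That within-pool ratio was larger than the 1.49-fold by which the low gainer level exceeded the high gainer level. Npy had no value on low gainer array 2. By the study's qRT-PCR, normalized to cyclophilin, Npy did not differ significantly between high and low gainers, in the pools or in individual mice.

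Cartpt, the precursor of the CART satiety peptide, had intensities of 1.70, 2.501, 1.76 and 2.38 on high gainer arrays 1 to 4, against 2.01, 3.97 and 3.12 on low gainer arrays 1, 3 and 4. Low gainer array 1 fell between the high gainer arrays, and low gainer arrays 3 and 4 lay above all of them. The mean was 2.09 ± 0.412 (SD, n = 4 arrays) in high gainers and 3.04 ± 0.981 (SD, n = 3 arrays) in low gainers. The level in high gainers was 0.710-fold that in low gainers, with a 95% interval from 0.499 to 1.01 and an adjusted p of 0.756 by limma. Within the low gainer pool the highest array was 1.97-fold the lowest, and within the high gainer pool 1.47-fold. Cartpt had no value on low gainer array 2. Npy and Cartpt, which act on feeding in opposite directions, thus both had the lower mean in high gainers.

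Hcrt, the precursor of orexin A and orexin B, had intensities of 1.48, 1.73, 1.20 and 1.56 on high gainer arrays 1 to 4, against 1.65, 2.56 and 2.18 on low gainer arrays 1, 3 and 4. Low gainer array 1 again lay below high gainer array 2 on this scale. The mean was 1.49 ± 0.217 (SD, n = 4 arrays) in high gainers and 2.13 ± 0.457 (SD, n = 3 arrays) in low gainers. The level in high gainers was 0.705-fold that in low gainers, with a 95% interval from 0.515 to 0.964 and an adjusted p of 0.755 by limma. After quantile normalization the groups just separated, with 0.73 as the highest log2 value in high gainers and 0.74 as the lowest in low gainers. Low gainer array 2 gave an intensity of 32.01, far above the other 7 arrays.

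Gal, the galanin precursor, had intensities of 1.74, 1.496, 1.48 and 1.73 on high gainer arrays 1 to 4, against 1.99, 2.07 and 1.64 on low gainer arrays 1, 3 and 4. The groups overlapped through low gainer array 4, which was the lowest of these 3 for Gal and not for Npy, Cartpt or Hcrt. The mean was 1.61 ± 0.143 (SD, n = 4 arrays) in high gainers and 1.90 ± 0.231 (SD, n = 3 arrays) in low gainers. The level in high gainers was 0.854-fold that in low gainers, with a 95% interval from 0.636 to 1.15 and an adjusted p of 0.872 by limma. Low gainer array 2 gave 0.268, below all other arrays. Over the 7 arrays compared, Gal varied least of the 4 within a pool, with ratios of highest to lowest array of 1.18 in high gainers and 1.26 on low gainer arrays 1, 3 and 4.

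**Figure D1:**
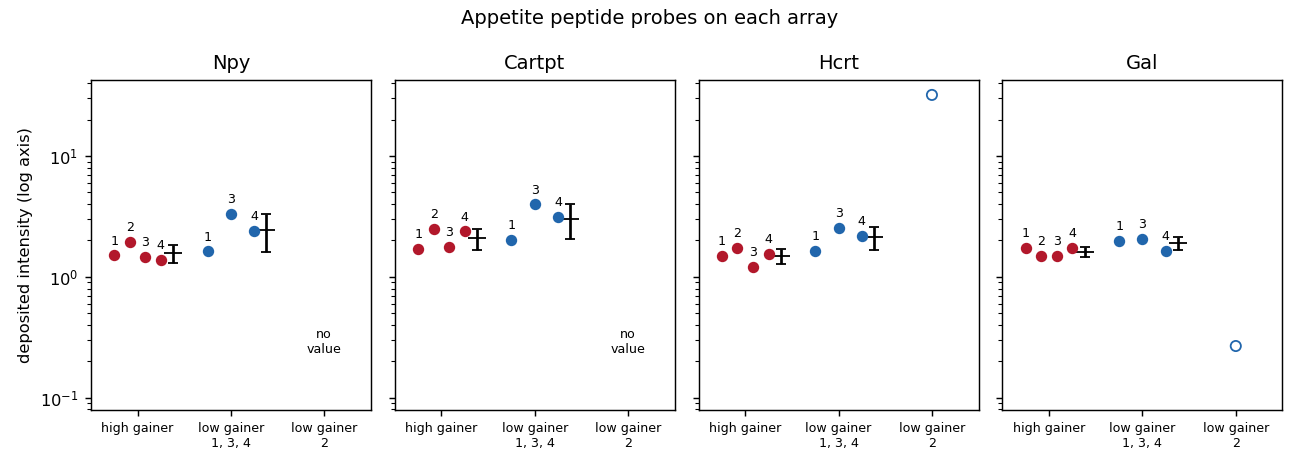
Deposited intensity (log axis) of the Npy, Cartpt, Hcrt and Gal probes, with 1 numbered point per array, high gainers in red and low gainers 1, 3 and 4 in blue, black bars for the mean and SD, and low gainer array 2 as an open circle. Low gainer arrays 3 and 4 lie above all high gainer arrays for Npy, Cartpt and Hcrt, and the open circles lie at 32.01 for Hcrt and 0.268 for Gal.

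Counted over the 4 peptides, deposited values separated the groups for 0 of 4, where 2.44% of all probes separated as lower in high gainers. After quantile normalization 1 of 4 separated (Hcrt), where 2.70% of all probes did so. The 4 log2 differences, high gainer minus low gainer, were -0.58 for Npy, -0.50 for Hcrt, -0.49 for Cartpt and -0.23 for Gal. The median over all probes was -0.0024, and 50.4% of probes lay below 0. A difference below that of Npy was seen in 2.14% of all probes, and below that of Cartpt, Hcrt and Gal in 3.79%, 3.58% and 18.9%. The Cartpt and Gal intervals include 0. Those of Npy and Hcrt end near it, at -0.07 and -0.05 on the log2 scale. Of 17 alternatives without low gainer array 2, the interval included 0 in 5 for Npy and 4 for Hcrt. These were the fits without high gainer array 1 or 3 or low gainer array 3 for both, without high gainer array 4 and by the methods' test for Npy, and with the replicate block for Hcrt.

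**Figure D2:**
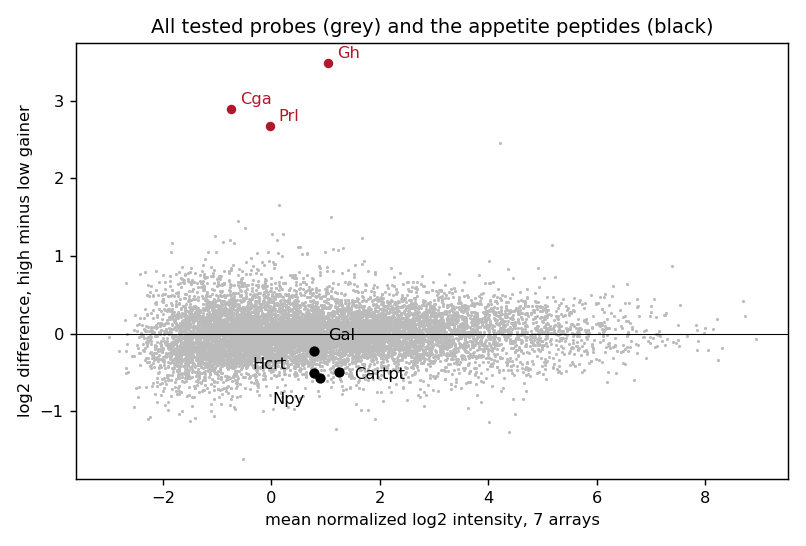
Log2 difference between high and low gainers (y axis) against mean normalized log2 intensity (x axis) for 11169 probes on 7 arrays, 1 point per probe. Npy, Cartpt, Hcrt and Gal (black) lie inside the lower part of the grey cloud, and the 3 called probes, Gh, Cga and Prl (red), lie far above it.

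By rank on each array, the 4 peptides were of middling brightness. The Npy probe was brighter than 61.9% to 69.6% of the probes with a value on high gainer arrays, and than 66.5% to 74.7% on low gainer arrays 1, 3 and 4. For Cartpt the percentiles were 64.6 to 74.1 on high gainer arrays and 70.6 to 77.9 on low gainer arrays. For Hcrt they were 57.7 to 67.1 on high gainer arrays and 66.9 to 71.7 on low gainer arrays. For Gal they were 62.3 to 68.3 on high gainer arrays and 66.1 to 70.3 on low gainer arrays. The ranges of the groups overlapped for all 4 peptides on this scale too. On low gainer array 2, Hcrt stood at the 97.1 percentile, Gal at the 10.3 percentile and Galp at the 49.3 percentile. Probe brightness is not set against that of another gene as a level, because probes differ in how strongly they bind.

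The spread between arrays was large for Npy and Cartpt and ordinary for Hcrt and Gal. The residual SD within pools, on the log2 scale, was 0.36 for Npy and 0.37 for Cartpt, against a median of 0.28 over all probes. Among probes within 0.5 log2 units of their own brightness, 74.8% had a smaller SD than Npy and 80.1% a smaller SD than Cartpt. For Hcrt the SD was 0.26 and for Gal 0.20, above 42.9% and 22.6% of probes of like brightness. Most of the spread of Npy and Cartpt lay in the low gainer pool. The range over its 3 arrays was 1.03 log2 units for Npy and 0.97 for Cartpt, against 0.45 and 0.54 in the high gainer pool.

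Npy, Cartpt and Hcrt varied together from array to array, and Gal varied apart from them. Over the 7 arrays, Pearson r of normalized log2 values was 0.90 between Npy and Cartpt, 0.93 between Npy and Hcrt and 0.93 between Cartpt and Hcrt. With each pool's mean taken out, r was 0.83, 0.86 and 0.90 for the same pairs, and most of that likeness lay in the low gainer pool. Over the 4 high gainer arrays alone r was 0.39 between Npy and Cartpt, 0.46 between Npy and Hcrt and 0.71 between Cartpt and Hcrt. Over low gainer arrays 1, 3 and 4 it was at least 0.988 for each of these pairs. Over all arrays but low gainer array 3, r was 0.74, 0.80 and 0.83. Gal had an r of 0.37 with Npy, 0.33 with Cartpt and 0.52 with Hcrt over 7 arrays, and of -0.01, -0.02 and 0.18 with the pool means taken out. These correlations describe 7 arrays of 2 RNA pools, so they hold no information on whether the genes vary together between mice.

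Many other probes followed the same course. Of 11168 other probes, Cartpt ranked 226 by r with Npy, and 2.02% had an r at least as high. Hcrt ranked 115 by r with Npy. Low gainer array 3 was the highest of the 7 arrays for all 4 peptides and for 23.7% of all probes. Low gainer arrays 3 and 4 both lay above every other array for Npy, Cartpt and Hcrt, a pattern seen in 13.9% of all probes. Low gainer array 3 also had the fewest probes with a value (13657) and, among the 7 arrays, the highest median deposited intensity (0.990). The part of these array properties in the peptide values was not tested.

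**Figure D3:**
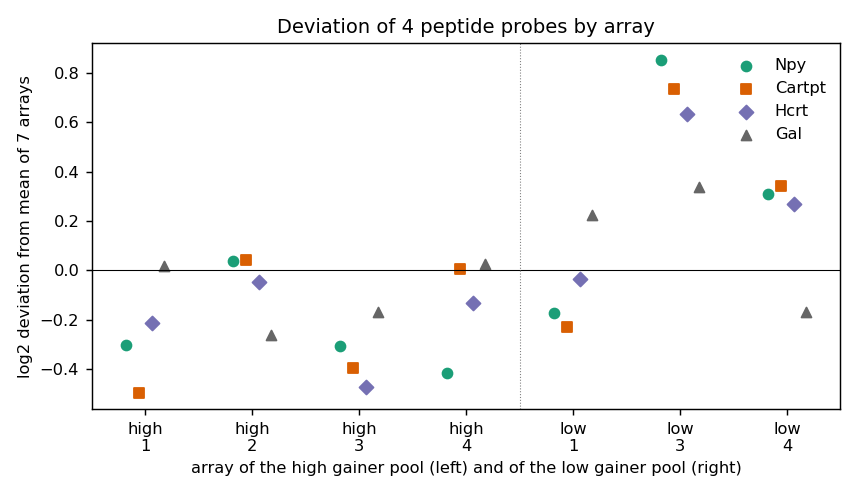
Log2 deviation of each peptide from its mean over 7 arrays (y axis), 1 point per gene and array, with high gainer arrays left of the dotted line and low gainer arrays right of it. Npy, Cartpt and Hcrt move together, at 0.85, 0.74 and 0.63 on low gainer array 3, while Gal is at 0.34 there and at -0.17 on low gainer array 4.

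The genes whose course over the 7 arrays was most like each peptide were taken from 6169 other genes by Pearson r, a rule that picks extremes of many genes over few arrays. For Npy they were Fmc1, Clta and Prkrip1, with an r of 0.985, 0.983 and 0.983. Fmc1 helps to assemble the mitochondrial ATP synthase, and Clta is a clathrin light chain. For Cartpt they were Bex4, Rpl41 and Psmb3, with an r of 0.991, 0.989 and 0.988. Rpl41 is a ribosomal protein and Psmb3 a proteasome subunit. For Hcrt they were Sema3b, Fahd2a and Micos13, with an r of 0.987, 0.985 and 0.980. For Gal they were Sf3b4, Inka2 and Nkiras1, with an r of 0.985, 0.943 and 0.940. Sema3b is a secreted guidance cue and Sf3b4 a splicing factor. None of these genes is a feeding peptide or a receptor for one, and all had a negative log2 difference, with an adjusted p of 0.752 or more by limma.

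Most receptors for the peptides had values on few arrays or none. Npy2r, the presynaptic Y2 receptor, was the only one with a value on all 7 arrays, where 43.9% of all probes that name 1 gene had one. Npy6r, Galr1, Galr3 and Hcrtr2 had a value on none of the 7, as had 21.4% of such probes. Of these, Hcrtr2 and Npy6r had a value on low gainer array 2 (1.40 and 0.279). Npy2r had intensities of 1.60, 1.72, 2.25 and 2.29 on high gainer arrays, against 1.87, 2.17 and 1.69 on low gainer arrays 1, 3 and 4. The groups overlapped, and the log2 difference was 0.03, with a 95% interval from -0.43 to 0.49 and an adjusted p of 0.989 by limma. Npy1r and Npy5r, through which neuropeptide Y stimulates feeding, had a value on 1 and 2 of 4 high gainer arrays and on 2 and 1 of 3 low gainer arrays. All these values were at 0.245 or below. Npy4r had a value on 1 high gainer array. Of the related peptides, Pyy was measured on 1 array of the high gainers and 2 of the low gainers, and Ppy on 1 array of the high gainers and 0 of the low gainers. Hcrtr1, which binds orexin A best, had a value on 1 high gainer array (0.197) and on 2 low gainer arrays (0.114 and 0.189). Galr2 had a value on 1 low gainer array (0.111). An empty cell does not show that a receptor is absent.

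No other feeding peptide was called. Of 26 genes on that list, 21 had a probe and 15 a value on all 7 arrays, of which 11 lay below 0 and 4 above, with 0 called in either direction. Their median log2 difference was -0.09, beside -0.0024 for all probes. Nts, which encodes neurotensin and restrains feeding, had intensities of 0.639, 1.14, 1.055 and 1.054 on high gainer arrays, against 1.07, 2.21 and 1.70 on low gainer arrays 1, 3 and 4. Like Npy, it was highest on low gainer array 3, and its log2 difference of -0.74 had an adjusted p of 0.750 by limma. Cck, the satiety peptide cholecystokinin, had 18.6, 19.5, 17.8 and 19.2 on high gainer arrays, against 20.2, 32.6 and 25.1 on low gainer arrays. The log2 difference of Cck was -0.42 (adjusted p 0.750 by limma). Penk, the enkephalin precursor, ran the other way, at 75.3, 78.6, 83.4 and 86.0 on high gainer arrays, against 67.5, 58.9 and 52.8 on low gainer arrays. For Penk the log2 difference was 0.48 (adjusted p 0.750 by limma). Agrp, which the Npy neurons also make, and Pmch, a lateral hypothalamic peptide, had no probe that names 1 gene, and Pomc had a value on 4 high gainer arrays and 1 of the low gainer arrays compared.

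**Figure D4:**
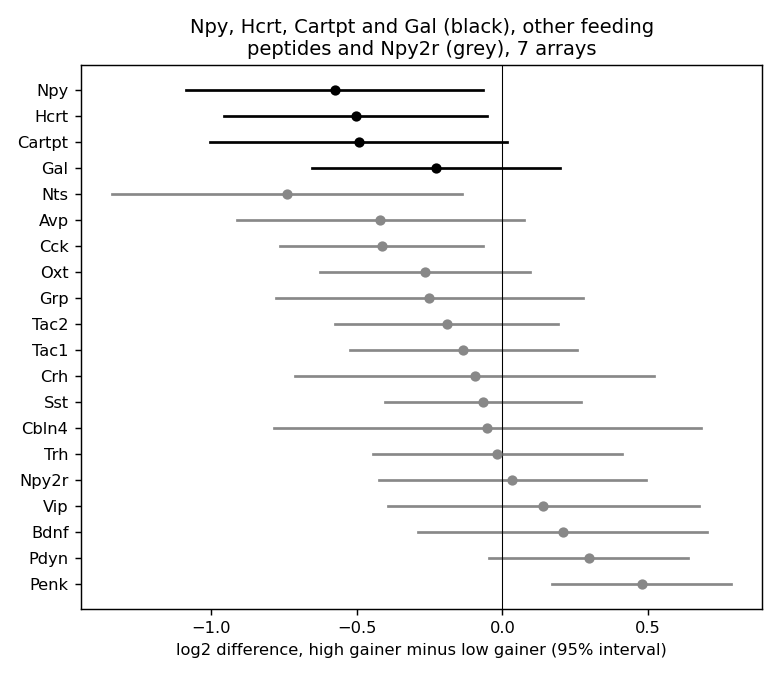
Log2 difference, high gainer minus low gainer, with its 95% interval from limma over 7 arrays (x axis), for each gene (y axis). Npy, Hcrt, Cartpt and Gal (black) run from -0.58 to -0.23, and the other feeding peptides and Npy2r (grey) from -0.74 for Nts to 0.48 for Penk.

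The enzymes and granule proteins that cut and store the precursors were measured for 9 of 13 genes, 6 of them above 0 and 3 below, with 0 called and a median log2 difference of 0.16. Chga, a granule matrix protein, had intensities of 45.8, 41.7, 44.5 and 45.1 on high gainer arrays, against 40.0, 36.4 and 28.3 on low gainer arrays 1, 3 and 4. The groups did not overlap, where 1.99% of all probes separated as higher in high gainers by deposited values (2.07% after normalization). The log2 difference of 0.39 had an adjusted p of 0.750 by limma. Pam, the enzyme that amidates neuropeptide Y and the orexins at their C-terminus, had 5.89, 3.81, 1.49 and 1.52 on high gainer arrays, against 2.36, 0.434 and 2.02 on low gainer arrays. It differed more between the arrays of a pool than between pools, with a log2 difference of 1.0505 and a 95% interval from -0.06 to 2.16. Pcsk1, a convertase that cuts the precursors, had 0.340, 0.279, 0.335 and 0.426 on high gainer arrays, against 0.169, 0.173 and 0.315 on low gainer arrays. For Pcsk1 the log2 difference was 0.61 (adjusted p 0.776 by limma).

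Markers of hypothalamic nuclei and of other tissues were set beside the peptides as sums of normalized intensity over their tested genes. Arcuate markers, Npy and Cartpt included, summed to 15.1 to 18.5 on high gainer arrays and to 17.0 to 21.4 on low gainer arrays 1, 3 and 4 (4 of 10 genes). Without Npy and Cartpt only 2 tested genes were left. Their sum was 11.4 to 14.2 in high gainers and 11.9 to 14.1 in low gainers, and their median log2 difference was -0.08 in place of -0.34. Lateral hypothalamic markers, Hcrt and Cartpt included, summed to 14.4 to 15.8 in high gainers and to 13.4 to 17.0 in low gainers (4 of 7 genes). Without Hcrt and Cartpt, again with only 2 tested genes left, the sum was 10.5 to 12.5 in high gainers and 8.31 to 10.7 in low gainers. The median log2 difference was then 0.13 in place of -0.27. Among 10 genes of hypothalamic identity, 3 were tested, and Nkx2-1 and Rax had a value on none of the 7 arrays. The sums of 4 marker lists separated the groups, and those of all the other lists overlapped. Among single probes, 2.70% separated as lower and 2.07% as higher in high gainers after normalization. Anterior and intermediate pituitary markers summed to 8.38 to 10.4 in high gainers and to 0.836 to 1.54 in low gainers (3 of 14 genes). Gh, Prl and Cga were the genes tested, and all were called higher. Another 6 genes of that list had values on only some of the 7 arrays. Of these, Lhb, Lhx3 and Pax7 overlapped between the groups. Pomc on high gainer arrays lay above its 1 low gainer value, and Tshb and Tbx19 had values in high gainers alone. Red cell markers summed to 8.98 to 15.1 in high gainers and to 18.2 to 34.1 in low gainers (3 of 6 genes). Oligodendrocyte markers summed to 47.7 to 79.3 in high gainers and to 12.4 to 42.9 in low gainers (5 of 8 genes). Striatal markers, among them Penk, summed to 103.3 to 113.2 in high gainers and to 73.4 to 86.7 in low gainers (5 of 7 genes). That separation rested on Penk, without which the sum was 22.7 to 29.7 in high gainers and 20.8 to 25.1 in low gainers. A sum is weighted to its brightest gene, and the other sums that separated were not taken again without theirs. On low gainer array 3, where the 4 peptides were highest, the red cell sum was the highest of the 7 arrays and the oligodendrocyte sum the lowest. The part of dissection or cell makeup in the peptide values was not tested.

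Leaving out single arrays moved the sizes but called no peptide. Without low gainer array 3, the log2 difference was -0.31 for Npy, -0.26 for Cartpt, -0.33 for Hcrt and -0.12 for Gal. Without low gainer array 1, it was -0.83, -0.75, -0.67 and -0.18 for the same genes. In that setting 171 probes were called by limma, yet the smallest adjusted p of the 4 peptides was 0.0785, for Npy. With low gainer array 2 included, the log2 difference of Hcrt was -1.49 and that of Gal 0.31, and the adjusted p by limma was 0.717 and 0.770.

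**Figure D5:**
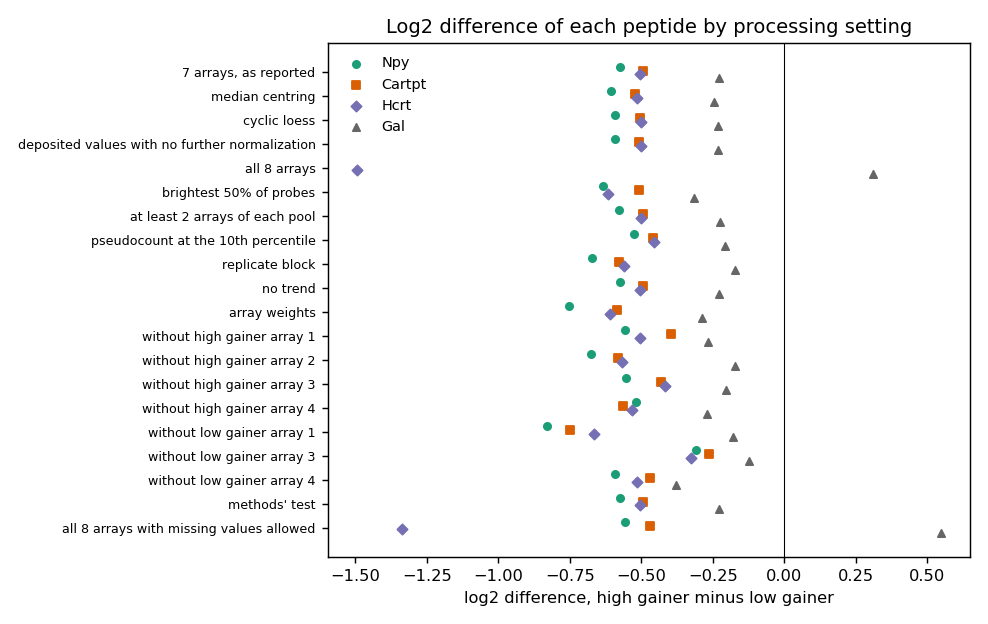
Log2 difference, high gainer minus low gainer (x axis), of Npy, Cartpt, Hcrt and Gal under each processing setting (y axis), 1 point per gene and setting. All points lie below 0 except those of Gal at 0.31 and 0.55 when low gainer array 2 is included, and in the settings without that array each gene lies nearest 0 when low gainer array 3 is left out.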

How the data were processed

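Per the labels, DIG-labelled cRNA of each RNA pool was hybridised to 1-colour Applied Biosystems mouse arrays, and the authors deposited 1 intensity per probe and array on a linear scale. By the study's methods, signals were normalized across arrays with a quantile-quantile method, and features past a signal-to-noise minimum and a quality flag limit counted as detected. Median intensity still differed between the arrays. The step that left cells empty and the genome build are not given in the sources used here. Of 33012 probes, 14411 named 1 gene in the platform annotation, 247 several and 18354 none. Groups came from the labels. Log2 intensities of the 11169 probes measured on each of 7 arrays were quantile normalized and fitted in limma (version 3.58.1, R version 4.3.3, trend, Benjamini-Hochberg adjustment over these probes, threshold 0.05), after a test on simulated data. Low gainer array 2 was left out because it stood apart. Genes and lists were chosen with earlier results of these data known. The brightest probe stood for a gene of several. All 5 peptides, receptors, the 3 tested genes of smallest p per pathway list and the 3 genes most alike in course were named. Alternatives were other normalizations, filters, a pseudocount at the 10th percentile, the replicate block, variance models, leaving out each array and the methods' test. Promoter windows came from RefSeq.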

Additional observations from a re-analysis of the deposited data

Results flagged for a closer look

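Hcrt had an intensity of 32.01 on low gainer array 2, where low gainer arrays 1, 3 and 4 lay between 1.65 and 2.56. Its distance to the next array was 0.970 of the range of the 4 arrays, past Dixon's 95% limit for a single stray value. In all, 6 groups of 4 arrays were searched in this way, and chance marks about 1 in 20. Galp had an intensity of 1.03 on low gainer array 2, an array outside the comparison, and no value on any of the other 7 arrays. Both values come from the array that did not follow the others over all probes, and nothing in them was tested.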

How the results depend on the processing

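Under 17 alternatives that left low gainer array 2 out, the log2 difference stayed below 0 for Npy, Cartpt, Hcrt and Gal, and none was called, with ranges of -0.83 to -0.31, -0.75 to -0.26, -0.67 to -0.33 and -0.38 to -0.12. Gal was at 0.31 with all 8 arrays, and at 0.55 with all 8 arrays and missing values allowed, an alternative chosen after seeing the data. Npy and Cartpt had no value on that array and could not be fitted with complete values on 8. Over all probes, limma called 3 on 7 arrays. It called 1 with all 8 arrays (fewer probes tested), 1 with all 8 arrays and missing values, 1 among the brightest 50% of probes, and 9 with the replicate block. The methods' test called 0 after adjustment, with 477 probes at an unadjusted p under 0.05, where limma had 724. Leaving out single arrays gave 2 to 171 calls by limma. The 171 (94 higher, 77 lower) came without low gainer array 1 and the cause was not tested. Every other array left out gave 2 to 4. Deviations from the pool means had an r of -0.20, 0.13 and -0.14 between same-numbered arrays, and of -0.52 to 0.45 between the others. Such deviations cancel out within a pool and the arrays are few, so r cannot settle whether the replicate numbers pair the arrays. No tested gene of the pathway lists had a further probe measured on all 7 arrays, so the choice of the brightest probe could not be tested.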

Other observations

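Transcription factors that act on the peptide genes were measured for 4 of 8 genes, 1 above 0 and 3 below, with 0 called and a median log2 difference of -0.10. Nhlh2, a hypothalamic factor linked to body weight, had intensities of 2.45, 2.39, 3.48 and 2.36 on high gainer arrays, against 2.77, 2.92 and 4.28 on low gainer arrays 1, 3 and 4. Foxo1, which raises Npy transcription when insulin and leptin signals are low, had 1.84, 1.75, 1.46 and 1.86 on high gainer arrays, against 1.61, 2.34 and 1.93 on low gainer arrays. Creb1 (its brightest probe), which binds cAMP response elements, had 1.94, 1.69, 1.58 and 1.51 on high gainer arrays, against 1.46, 1.21 and 1.78 on low gainer arrays. Each of the 3 overlapped between the groups, and their adjusted p by limma lay between 0.837 and 0.916.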
